A study of Homo sapiens with 79 samples.

Results

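The RNA recovered with IMP1 (IGF2BP1) was measured by formaldehyde RNA immunoprecipitation and sequencing (fRIP) in K562 cells, a human erythroleukemia line. In this assay RNA and protein are joined by light fixation, here with 0.1% formaldehyde, an antibody pulls 1 protein from the lysate, and the RNA held by it is released and sequenced. The 3 IMP1 libraries are all those labelled with this protein among 70 fRIP libraries of 24 proteins, and 9 libraries of input complete the 79 of the series. Input is RNA of the fixed lysate that met no antibody. It was deposited in 3 sets of 3 libraries, and IMP1 was compared with the set nearest to the input values that the submitters used for it. The median distance to those values was 0.0677 on the log2 scale for input set 1 and 4.73 and 4.89 times as large for the other two, over 15122 genes. All groups are the same fixed, otherwise untreated cells. The replicates are described by the study as separate lysates. The extraction text attached to all libraries names an antibody against HuR, so the IMP1 libraries are identified here by their titles.

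IMP1 is 1 of 3 related insulin-like growth factor 2 mRNA-binding proteins. It carries RNA recognition motifs and KH domains, is made mainly in embryonic tissue and again in tumor cells, and sits chiefly in cytoplasmic granules, where it binds mature mRNA and is known to shield some transcripts from decay, microRNAs or early translation. Its first known sites are the zipcode of beta-actin mRNA, H19, MYC and IGF2. Transcriptome-wide mapping by others gave it a short preference for CAU followed by A, U or C, mostly in 3′ UTRs, and several of its target mRNAs are also targets of the let-7 microRNAs. IGF2 itself could not be examined here, since its level was 0.0197 FPKM at most in the IMP1 libraries and input set 1.

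The sequences below show the elements to which the values refer. They were read on hg19 on the transcript strand, from the annotated transcript with the highest input level except for the zipcode, with the searched letters in capitals (T stands for U). For the 5 mRNAs with the highest recovery, the 30-base stretch of the 3′ UTR with the most IMP1 tetramers (CATA, CATC or CATT, found on the transcript strand and allowed to overlap) was taken.
NXT2, chrX:108785931-108785960, plus strand: CATTctCATTtggtcCATTagttccagcaa
DESI2, chr1:244871461-244871490, plus strand: CATAtgaacaatctggtCATTaaCATAcat
CAV2, chr7:116148084-116148113, plus strand: CATTgcagCATCcttagatgggacgCATAa
MTPN, chr7:135613890-135613919, minus strand: CATACATTtatatagCATTgaaacactttc
PRKAR2B, chr7:106800720-106800749, plus strand: CATTaatgCATTtttccctCATCaagCATA
A stretch with at least 3 such tetramers occurs in the 3′ UTR of 32.3% of the 13406 mRNAs examined, and one with at least 4, as in PRKAR2B, in 5.94%. The beta-actin zipcode is shown because it is the best known IMP1 element, with its CGGAC and ACACCC in capitals, and was read from another annotated ACTB transcript than the one with the highest input level. CGGAC followed by ACACCC after 8 to 18 bases occurs in the 3′ UTR of 6 of the 13406 mRNAs (0.0448%).
ACTB, chr7:5567350-5567377, minus strand: CGGACtatgacttagttgcgttACACCC
The mature let-7a sequence (RefSeq) is given with its seed, bases 2 to 8, in capitals. Below it is the first perfect match to that seed, CTACCTC, in the 3′ UTR of 3 let-7 target mRNAs that were recovered with IMP1. Such a match occurs in 8.14% of the 3′ UTRs.
hsa-let-7a-5p: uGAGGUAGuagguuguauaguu
HMGA1, chr6:34213610-34213639, plus strand: ctgttcacaaaCTACCTCtggacagttgtg
NRAS, chr1:115250511-115250540, minus strand: tctcagaataaCTACCTCctcacttggctg
LIN28B, chr6:105526691-105526720, plus strand: ggttgcaaagtCTACCTCatgcaagtatag
The octamer TTTTAAAA, found in 28.6% of the 3′ UTRs, is shown in 2 of the leading mRNAs.
NXT2, chrX:108787226-108787255, plus strand: ataactcttctTTTTAAAAagaaaatagag
PRKAR2B, chr7:106800566-106800595, plus strand: atcatatgcagTTTTAAAActttttatatt

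The files give FPKM, that is fragments scaled to transcript length and library size, and no counts. Depth was therefore estimated from the spacing of low FPKM values in single-isoform genes, where values are multiples of 1 fragment. It came to 21.5 to 25.9 M (mega) fragments for the IMP1 libraries and 19.1 to 20.9 M for input set 1. The IMP1 libraries correlated with each other at 0.979 to 0.987 across genes (Pearson, log2(FPKM + 1)) and with the inputs at 0.914 to 0.928. Comparisons were differences of mean log2(FPKM + 1), written as log2 differences, from 1 limma fit of all 79 libraries. A gene was called enriched or depleted when its adjusted p was under 0.05 and its difference beyond 1, which is 2-fold. The scale matters for the lists that follow. The median over the 25442 genes tested was -0.22, and centring each library on its median level raised every difference by 0.65. List medians of histone, respiratory chain, cytoplasmic lncRNA, zinc finger and marker genes, negative as deposited, were positive after that centring, while ribosomal protein, mitochondrial, nuclear lncRNA, small RNA and globin lists stayed negative. Centring on abundant mRNAs instead moved differences by -0.08. The levels measured are of RNA in a library, so less RNA per cell and fewer cells cannot be told apart in the inputs.

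Against input set 1, IMP1 fRIP was enriched for 1249 genes (4.91% of those tested) and depleted of 3513 (13.8%). Most of the enriched RNAs were mRNAs, while long noncoding RNAs (lncRNAs) and pseudogenes made up more of the depleted ones than mRNAs did. Of 13618 mRNA genes 1042 were enriched (7.65%) and 1100 depleted (8.08%), with a median difference of -0.09. Of 5245 lncRNA genes 82 were enriched (1.56%) and 978 depleted (18.6%), and their median was -0.34. Among 5247 pseudogenes 75 were enriched and 1229 depleted (23.4%). Level entered here, since a gene under 1 FPKM cannot fall by 2-fold on this scale and no such gene was called depleted. Between 10 and 30 FPKM in input, 10.6% of mRNAs and 6.93% of lncRNAs were enriched and 8.00% and 27.1% depleted. After centring on library medians 4562 genes were enriched and 1000 depleted, with all 1249 still among the enriched and 28.5% of the 3513 among the depleted. Against all 9 inputs the counts were 1077 (4.23%) and 2661 (10.5%).

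The 15 mRNAs with the highest differences, taken from those called with all IMP1 libraries above input set 1, lay 4.28- to 6.03-fold above input. NXT2, an mRNA export cofactor, stood at 55.4, 38.4 and 51.3 FPKM in the IMP1 libraries and at 6.04, 7.30 and 8.10 in input set 1. The log2 difference was 2.59 (SE 0.17, limma adjusted p = 2.3e-18), and the lowest IMP1 library was over 4 times the highest input. DESI2, a deSUMOylating peptidase, gave 155, 97.4 and 170 FPKM against 22.4, 29.2 and 28.0, a difference of 2.33. CAV2, a caveolin, gave 103, 82.4 and 102 against 13.6 to 21.7, also a difference of 2.33. For each of them the second IMP1 library was the lowest of its group. MTPN, which encodes myotrophin, a small ankyrin repeat protein, followed with a difference of 2.24, and PRKAR2B, a regulatory subunit of protein kinase A, with 2.23 and a wide spread, 249 to 505 FPKM. The rest of the 15 were TRIQK, CD68, TMED2, HINT3, RAD23B, EI24, PPP1CC, FAM206A, TAF9B and CHRAC1, with differences of 2.10 to 2.22. PPP1CC, a catalytic subunit of protein phosphatase 1, differed by 2.15 (SE 0.11). As a description, since the 15 were chosen for high IMP1 values, the mean level in IMP1 fRIP was the highest of the 24 fRIPs for 14 of them (and for 5.15% of all mRNAs tested), and RAD23B was second. Their median 3′ UTR was 1910 bases, against 800.5 for all mRNAs, and their median coding length 546 bases, against 1173.

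**Figure D1:**
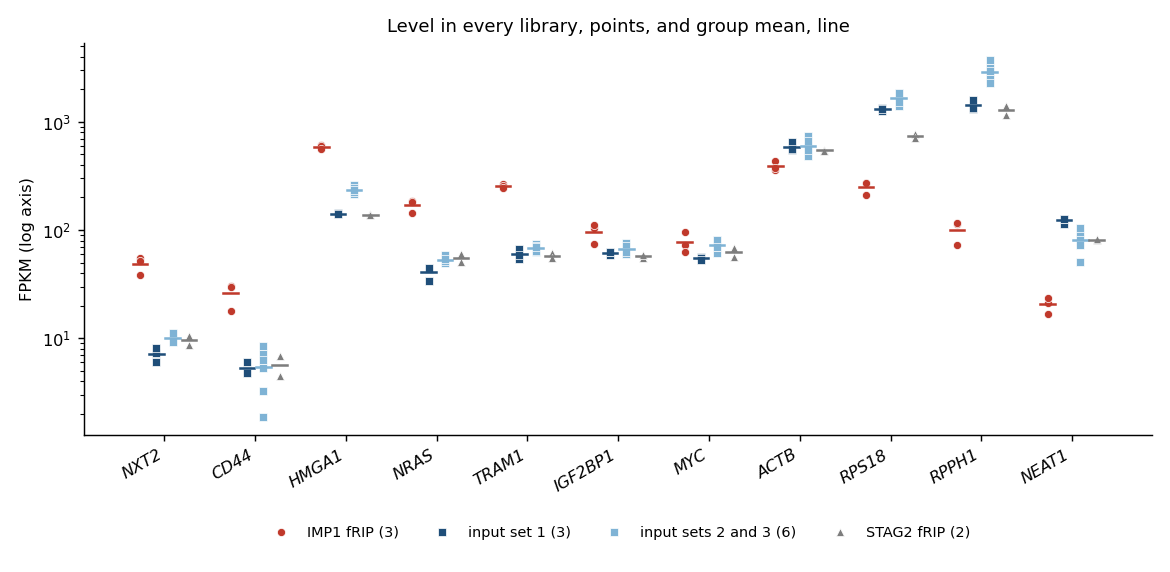
FPKM on a log axis for 11 genes, with a point for each library and a line at each group mean (IMP1 fRIP, input set 1, input sets 2 and 3, and STAG2 fRIP). NXT2, CD44, HMGA1, NRAS and TRAM1 lie above all inputs in every IMP1 library, ACTB lies below them, and RPS18, RPPH1 and NEAT1 lie furthest below.

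The mRNAs of the IMP family itself were not called. IGF2BP1 stood at 105, 73.8 and 112 FPKM with IMP1 and at 59.3, 62.2 and 62.2 in input, so all IMP1 libraries were above the inputs. The difference was 0.63 (SE 0.20, limma adjusted p = 0.0071), short of 2-fold, or 1.28 and called after centring on library medians. IGF2BP3 differed by 0.19 (adjusted p = 0.29) and IGF2BP2 by -0.25 (adjusted p = 0.25), and the last turned to 0.40 after that centring. No protein level was measured.

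Of 22 RNAs listed as reported IMP1 targets 19 were tested, and 4 were enriched and none depleted (against 7.65% and 8.08% of all mRNAs, and 4.91% and 13.8% of all genes), with a median of 0.18. CD44, a surface receptor whose mRNA is a known IMP target, rose to 30.7, 17.8 and 30.0 FPKM from 5.03, 6.04 and 4.76, a difference of 2.08 (SE 0.28, limma adjusted p = 1.4e-08). LIN28B, which blocks let-7 maturation, rose by 1.63, and IMP1 fRIP held the highest mean of the 24 fRIPs for both. The H19 lncRNA depended on the control. It gave 43.3, 10.7 and 48.2 FPKM with IMP1 and 3.29, 7.03 and 6.68 in input set 1, a difference of 2.20 (adjusted p = 0.00045). It was at 34.7 and 24.7 FPKM in STAG2 fRIP, and against all 9 inputs its difference was 0.89 (adjusted p = 0.14), so the call ended there.

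ACTB, which carries the zipcode printed above, was lower with IMP1 than in input. Its level was 359, 436 and 372 FPKM against 649, 552 and 561, and the difference was -0.59 (SE 0.16, limma adjusted p = 0.0018), within 2-fold. No library of one group overlapped the other, and after centring the difference was 0.05. MYC, which carries an IMP1 site in its coding region, gave 73.4, 63.3 and 96.3 FPKM against 56.0, 55.2 and 53.3, a difference of 0.47 (adjusted p = 0.079). CTNNB1 (-0.47), BTRC (0.48) and MKI67 (0.01) were not called either. SRF reached 0.99 and passed 2-fold when IMP1 replicate 2 or 3 was left out (1.003 and 1.006) or input replicate 3 (1.05).

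The mRNAs of the let-7 target list had the highest share enriched against input of the lists examined, 7 of 18 tested (38.9%, against 7.65% of all mRNAs), with none depleted and a median of 0.60. The rank did not hold against STAG2 fRIP, where 3 of 18 let-7 target and 13 of 60 ER mRNAs were enriched (1103 of all 13618 mRNAs were). HMGA1, a chromatin protein of growing cells, stood at 613, 594 and 565 FPKM with IMP1 and at 142 in each input, a difference of 2.05 (SE 0.17, limma adjusted p = 2.9e-15). NRAS gave 187, 144 and 183 FPKM against 34.1, 44.1 and 45.1, a difference of 2.03. Both were far outside the spread of the inputs. LIN28B and CCND2, a G1 cyclin (1.45), were also clear of it. NR6A1 (1.09) was close to the 2-fold limit and fell below it when IMP1 replicate 3 was left out (0.98). Against all 9 inputs 5 of the 18 were enriched (870 of all 13618 mRNAs were). Of the 7 enriched, 5 hold a seed match in the 3′ UTR of the transcript examined, and CCND2 does not. Of all 18 tested, 14 hold such a match. When all mRNAs were put in 5 groups of like size by 3′ UTR length, 15.1% of 577 mRNAs with a seed match and 15.9% of 2104 without one were enriched in the group with the longest 3′ UTRs. In the next group both shares were 11.2%.

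Among 30 mRNAs of cyclins and cell cycle kinases 5 were enriched (16.7%, against 7.65% of all mRNAs) and none depleted (against 8.08%), with a median of 0.17. Against all 9 inputs 5 were enriched and 2 depleted (870 and 1059 of all 13618 mRNAs were), and against STAG2 fRIP 4 and 3 (1103 and 1446), with a median of -0.13. CCNG1 (1.62), CCNA2 (1.53) and CDK6 (1.53) led them, each with the highest mean of the 24 fRIPs. CCNA2, the S phase cyclin, stood at 249, 188 and 286 FPKM with IMP1 against 71.7, 86.4 and 86.7 in input. CCNB1, the mitotic cyclin, went the other way without a call, at 69.4, 61.9 and 89.9 FPKM against 120, 122 and 122.7 (-0.73, or -0.08 after centring). CCNI was at 1.01 and fell below 2-fold without IMP1 replicate 1 or 2 (0.95 and 0.97) or input replicate 1 or 3 (0.997 and 0.996).

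Messages of proteins known from IMP1 granules were mixed. Of 18 tested 4 were enriched (22.2%, against 7.65% of all mRNAs) and 1 depleted (5.56%, against 8.08%), with a median of 0.21. PABPC1, the cytoplasmic poly(A)-binding protein, gave 2516, 2425 and 2173 FPKM against 692, 729 and 741, a difference of 1.71 (SE 0.13, limma adjusted p = 2.3e-16). G3BP2 (1.31) and STAU1 (1.17), RNA-binding proteins of cytoplasmic granules and transport complexes, were enriched too. The depleted member was UPF1, the helicase of nonsense-mediated decay, at -1.13, or -0.97 without the second IMP1 library. ELAVL1, which encodes HuR, was at 0.95 and reached 1.09 without that library. Against STAG2 fRIP 2 of the 18 were enriched and 1 depleted (1103 and 1446 of all 13618 mRNAs were).

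Messages for proteins of the endoplasmic reticulum (ER) and the secretory pathway were examined as a list. Of 60 mRNAs 16 were enriched (26.7%, against 7.65% of all mRNAs) and 2 depleted (3.33%, against 8.08%), the median was 0.34, and 33 lay above all 3 inputs (3888 of all 13618 mRNAs and 18.7% of all genes did). TRAM1, a translocon component, stood at 269, 257 and 244 FPKM against 66.7, 54.3 and 58.8, a difference of 2.08 (SE 0.14, limma adjusted p = 3.3e-18). SSR3, a subunit of the translocon-associated complex (1.41), KDELR2, a receptor that returns ER proteins (1.36), the chaperone CANX (1.35) and SEC24A of the COPII coat (1.29) rose together with it. The depleted members were SEC61G (-1.4) and SSR4 (-1.24), which encode small translocon subunits and lost the call after centring (-0.75 and -0.59).

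Messages of the cytosolic ribosome were depleted or not called. None of 86 was enriched and 48 were depleted (55.8%, against 8.08% of all mRNAs), and 64 lay below all 3 inputs (4939 of all 13618 mRNAs and 42.6% of all genes did). Their median was -1.11, or -0.47 after centring, when 3 were enriched and 20 depleted (3645 and 163 of all 13618 mRNAs were). RPS18 stood at 271, 274 and 211 FPKM against 1265, 1346 and 1320, a difference of -2.38 (SE 0.18, limma adjusted p = 5.1e-16). RPS29 (-2.71) fell by more, and RPS28 (-2.24) and RPLP2 (-2.21) by slightly less. Not all members did: RPL15 differed by 0.72 and RPL41 by 0.49, neither of them called. The median 3′ UTR of the list is 57 bases.

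Nuclear-encoded subunits of the respiratory chain, likewise short mRNAs (median 3′ UTR 144 bases), had 1 enriched and 30 depleted among 83 entries tested, in which SDHD, NDUFB8, UQCR11 and NDUFA7 have 2 entries each with different values (1.20% and 36.1%, against 7.65% and 8.08% of all mRNAs). Their median of -0.60 went to 0.05 after centring, with 9 enriched and 2 depleted, where 3645 and 163 of all 13618 mRNAs were. ATP5I of the ATP synthase fell by 1.86 on the log2 scale, from 136 ± 19.7 to 36.9 ± 7.57 FPKM (SD, n = 3). NDUFA5 was the enriched member at 1.06, a call lost without IMP1 replicate 1 or 3 (0.93 and 0.99) or input replicate 1 (0.96). Of 28 RNAs encoded in mitochondria, which are made and kept apart from the cytoplasm, 14 were depleted (13.8% of all genes were) and none enriched, and 5 were depleted after centring (3.93% of all genes were). MT-ND5 gave 108, 132 and 110 FPKM against 422, 424 and 414 (-1.85), and MT-CO1 219, 333 and 267 against 599, 551 and 534 (-1.06, or -0.91 without IMP1 replicate 1).

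Of 11 tested members of the list of nuclear lncRNAs 5 were depleted and 1 enriched, against 18.6% and 1.56% of all lncRNAs, with a median of -0.86. The location of each member was not tested. After centring 1 was depleted and 2 were enriched (3.93% and 17.9% of all genes were), and against STAG2 fRIP 2 and 2 (9.95% and 6.04%). NEAT1, the scaffold of paraspeckles, fell from 115, 127 and 127 FPKM in input to 21.2, 16.9 and 23.6, a difference of -2.53 (SE 0.26, limma adjusted p = 5.2e-12). KCNQ1OT1, an imprinted nuclear transcript, fell by 1.64. MALAT1 was at 597, 570 and 614 FPKM with IMP1 and at 5083, 5471 and 5547 in input, a difference of -3.17. The SE, which is shared with the other groups of the fit, was 1.31 and the limma adjusted p 0.046, and the call was lost when any single library was left out (adjusted p 0.0846 to 0.0892). TUG1, found in both compartments, was the enriched member at 194, 157 and 187 FPKM against 63.0, 56.7 and 58.6 (1.57), the highest mean of the 24 fRIPs.

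The list of cytoplasmic lncRNAs had 3 of 16 enriched and 7 depleted, against 1.56% and 18.6% of all lncRNAs, and 5 enriched and 1 depleted after centring (17.9% and 3.93% of all genes were). These counts include RPPH1, which is 1 of the depleted and does not belong there, since it is the RNA of nuclear RNase P. DANCR (1.77) and SNHG1 (1.55) rose beside H19, and GAS5, a snoRNA host, fell by 1.23. RPPH1 was the steepest of them, at 114, 115 and 73.3 FPKM against 1602, 1317 and 1347 (-3.83, SE 0.22, limma adjusted p = 3.6e-20). Of 23 small structured RNAs 9 were depleted (13.8% of all genes were) and none enriched, and 6 were depleted after centring (3.93% of all genes were). Among the 9 were RMRP (-1.93) and RN7SL1, the RNA of the signal recognition particle (-2.04). By the rule for single lncRNAs the highest were UCA1, H19, TAB3-AS2, RP11-841O20.2 and RP11-839G9.1. UCA1, a cytoplasmic lncRNA of tumor cells, stood at 84.8, 76.6 and 78.6 FPKM against 17.8, 13.4 and 15.7 (2.29). TAB3-AS2 and RP11-841O20.2 lie within TAB3 and ERO1L, and the library kit the study names does not mark strand, so their reads cannot be told apart from those of an overlapping gene. The lowest, besides RPPH1 and MALAT1, included RP11-230C9.3 and RP4-633I8.4, which lie within ARID1B and RERE. RP11-230C9.3 was listed at 0 in every IMP1 library and at 12 to 21 FPKM in input, and its call was lost when any single library was left out (limma adjusted p 0.0583 to 0.0909).

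The list of replication-dependent histone genes, whose mRNAs end in a stem-loop and lack a poly(A) tail, also holds pseudogenes and genes without a match in the annotation. It gave 2 enriched and 6 depleted among 76 tested (2.63% and 7.89%, against 4.91% and 13.8% of all genes), with a median of -0.47. After centring 5 were enriched and none depleted, when 17.9% and 3.93% of all genes were, and the median was 0.18. Against all 9 inputs none was enriched and 43 were depleted (10.5% of all genes were), with a median of -1.11, and against STAG2 fRIP 3 were enriched and 22 depleted (6.04% and 9.95% of all genes were), so the count depends on the control. HIST1H2BK (1.31) and HIST2H2BE (1.21) were the enriched ones, but against all 9 inputs they differed by 0.75 and 0.57 and were not called. The lowest was HIST1H1T (-1.23). Of 40 mRNAs of the actin cytoskeleton 7 were enriched (17.5%, against 7.65% of all mRNAs) and 2 depleted (5%, against 8.08%), with a median of 0.12. CAPZA1, which caps filaments, stood at 436, 367 and 423 FPKM against 142, 145 and 142 (1.5, SE 0.09, limma adjusted p = 1e-19). ARPC5 of the Arp2/3 complex (1.4), WASF2 (1.29) and MSN (1.08) rose with it, and TMSB10, a short mRNA for an actin monomer binder, fell by 1.5. Against STAG2 fRIP 4 of the 40 actin mRNAs were enriched and 2 depleted (1103 and 1446 of all 13618 mRNAs were). Immediate early and AU-rich mRNAs were mostly within 2-fold of input, with none of 26 depleted (against 8.08% of all mRNAs) and 1 enriched (3.85%, against 7.65%). It was ZFP36L2 (1.03, and 0.93 to 0.98 without IMP1 replicate 3 or input replicate 2 or 3). ATF3 reached 1.46 but its adjusted p was 0.11. Of 477 zinc finger mRNAs 22 were enriched and 26 depleted (4.61% and 5.45%, both below the 7.65% and 8.08% of all mRNAs), with a median of -0.12. The counts depended on the control. Against STAG2 fRIP they were 40 and 27 (1103 and 1446 of all 13618 mRNAs), and against PABP fRIP 105 and 31 (1859 and 2536).

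The identity of the cells and the spread of the inputs were looked at through marker genes. All 15 erythroid and K562 markers were above 1 FPKM in each of the 6 libraries. Of 12 markers of other blood, epithelial and stromal cells 3 to 5 reached 1 FPKM, and their summed level was 47.1 to 53.7 FPKM with IMP1 and 53.3 to 61.9 in input. Globin mRNAs set the first library of input set 1 apart: HBG2, fetal globin, was at 178 FPKM there and at 901 and 944 in the other two, against 264, 116 and 276 with IMP1. Its difference was -1.38 (adjusted p = 0.13), and without that input -2.17 (adjusted p = 0.026). Of 9 globin mRNAs 1 was depleted (13.8% of all genes were), HBQ1 (-1.66), and against all 9 inputs 5 were (10.5% of all genes), with list medians of -1.24 and -1.54.

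**Figure D2:**
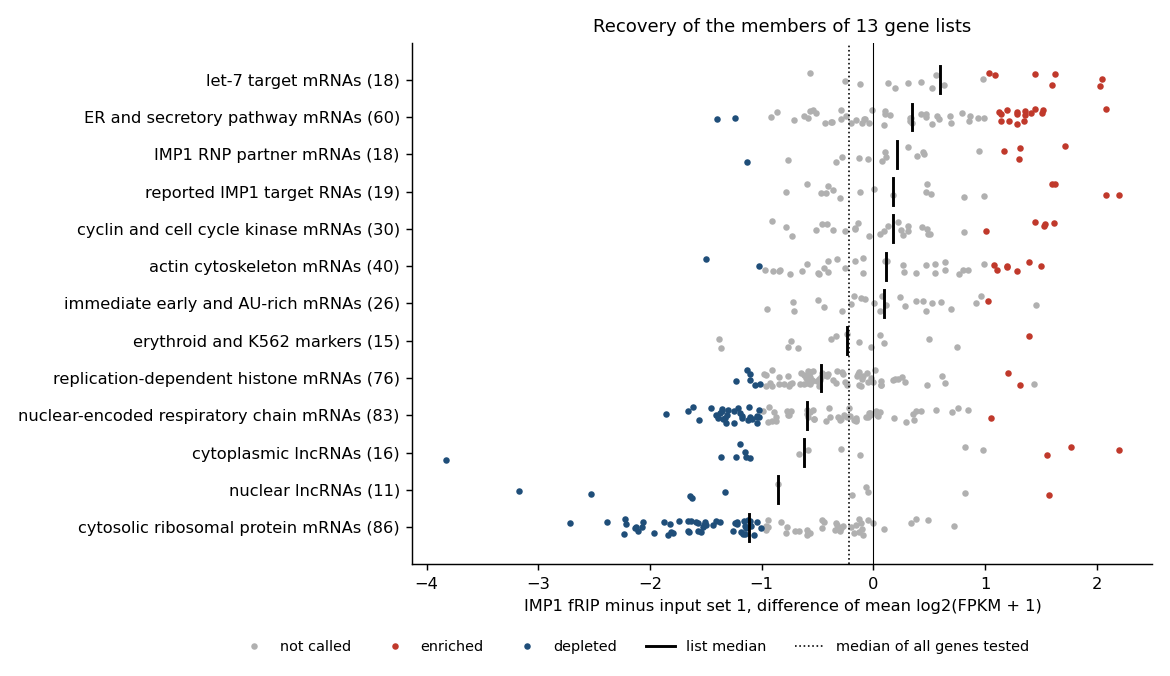
Difference between IMP1 fRIP and input set 1 for each tested member of 13 gene lists (log2 scale, number of members in brackets), colored by call, with the list median as a black bar and the median of all genes as a dotted line. let-7 target mRNAs (median 0.60) and ER mRNAs (0.34) lie to the right of all genes, and ribosomal protein mRNAs (-1.11) to the left.

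Of the 15 mRNAs with the steepest depletion 2 encode ribosomal proteins, and 7 lie within another gene. HOOK2, a microtubule linker, was at 3.94, 5.23 and 5.29 FPKM with IMP1 and at 171, 72.6 and 72.7 in input (-4.08, SE 1.04, limma adjusted p = 0.001), with wide spread among inputs. SLC16A4, a monocarboxylate transporter, lies within LAMTOR5-AS1 and fell by 3.06. OR51B6, OR52D1 and OR51M1, olfactory receptor genes, lie within the long HBG2 and HBE1 gene models of the beta-globin locus, and OMG within NF1. OR2B2, OR8D1, KCNJ16, TLR8, WDR74, AL590452.1 and AL136115.1 differed by -3.47 to -2.56, and RPS29 and RPS18 complete the 15. Of all depleted mRNAs 14.7% lie within another gene, of the enriched ones 4.32%, and of all mRNAs tested 6.41%. Reads of such genes cannot be told from those of the gene around them without strand.

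STAG2 belongs to the cohesin complex, and its fRIP was the study's control for background binding. The study also describes a small set of transcripts strongly recovered with STAG2, so for such RNAs it is no background. Its 2 libraries are shallower, at 8.35 and 9.04 M fragments. Against STAG2 fRIP, IMP1 fRIP was enriched for 1537 genes (6.04%) and depleted of 2531 (9.95%), or 3283 and 821 after centring. Of the 1249 genes enriched against input set 1, 67.4% were enriched against STAG2 fRIP too, and of the 3513 depleted 36.4% were depleted. The 15 leading enriched mRNAs, chosen for their large differences, were all called against it too. So were 11 of the 15 leading depleted mRNAs, 4 of the 5 leading enriched lncRNAs and 2 of the 5 leading depleted ones. NXT2 was at 8.64 and 10.5 FPKM in STAG2 fRIP (difference 2.21, limma adjusted p = 4.2e-14). HMGA1 (2.08), TRAM1 (2.12), CD44 (2.01) and NRAS (1.6) were above 2-fold, while LIN28B (0.96), CCND2 (0.95) and NR6A1 (0.69) were within 2-fold, so that 3 of 18 let-7 target mRNAs were called. Of the 86 ribosomal protein mRNAs 7 were enriched and 15 depleted (1103 and 1446 of all 13618 mRNAs were). Their median was -0.27, against -1.11 from input. For RPLP2 the difference was -0.25 (adjusted p = 0.42), with 208 and 221 FPKM in STAG2 fRIP and 198, 194 and 152 with IMP1. Of the 28 mitochondrially encoded RNAs none was depleted against STAG2 (9.95% of all genes were). NEAT1 (-1.95) and RPPH1 (-3.69) were still depleted. These comparisons use the same 3 IMP1 libraries as those with input.

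PABP, the poly(A)-binding protein, is another general binder of mature mRNA in the series. Against PABP fRIP, IMP1 fRIP was enriched for 2361 genes (9.28%) and depleted of 3357 (13.2%), but rescaling each library to 1 fixed sum gave 6975 and 1358, and centring on abundant mRNAs 2973 and 2871. Ribosomal protein mRNAs were lower with IMP1, with 82 of 86 depleted in IMP1 fRIP relative to PABP fRIP and a median of -3.34. Of all 13618 mRNAs 2536 were depleted in this comparison. Respiratory chain mRNAs followed with 71 of 83 (median -2.65) and globin mRNAs with 8 of 9. Of the let-7 target mRNAs 9 of 18 were enriched over PABP fRIP and 1 depleted (1859 and 2536 of all 13618 mRNAs were). NRAS was higher with IMP1 by 1.56, whereas HMGA1 was at -0.34 (limma adjusted p = 0.1) and did not pass the test. CDK6 (2.45), TUG1 (2.35) and CD44 (1.98) were also higher than in PABP fRIP.

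Recovery was next set against transcript structure, with features computed for 13406 mRNAs. Recovery, the difference between an IMP1 library and the mean of input set 1, correlated across genes with AU content (Spearman 0.408 ± 0.030, SD over 3 libraries), with runs of 5 T per kb (0.390 ± 0.027) and with 3′ UTR length (0.339 ± 0.016). The correlation was near 0 for coding length (-0.018 ± 0.019) and for exon number (-0.029 ± 0.009, an isoform mean weighted by input level, over 13333 mRNAs). Genes are not independent replicates, the 3 libraries share the inputs, and these features are related to each other, so the values are descriptions. IMP1 tetramers per kb gave 0.299 ± 0.011 and TTTTAAAA per kb 0.265 ± 0.023. For the parts of the zipcode it was negative: CGGAC gave -0.131, ACACCC -0.048 and GGAC, which is part of CGGAC and of the m6A consensus, -0.329.

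In 5 groups of like size by 3′ UTR length, the share of mRNAs enriched went from 2.95% of the shortest (median 61 bases) to 15.7% of the longest (median 3726), and the share depleted from 15.7% to 3.13%. By AU content it went from 0.634% to 17.6% enriched and from 14.5% to 3.21% depleted. By IMP1 tetramers per kb it went from 1.68% to 15% enriched and from 14.7% to 6.38% depleted. The median difference by tetramers was 0.16 in the next highest group and 0.12 in the highest. AU content and 3′ UTR length were then crossed, each in 3 groups of like size. Of mRNAs with long 3′ UTRs and high AU content 20.9% were enriched, of those with long 3′ UTRs and low AU content 1.28%, and of short 3′ UTRs and high AU content 5.23%. A long 3′ UTR on a short coding region gave the highest share, 25.8% of 946 mRNAs (median difference 0.47), against 6.73% where both were long and 3.13% where both were short.

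**Figure D3:**
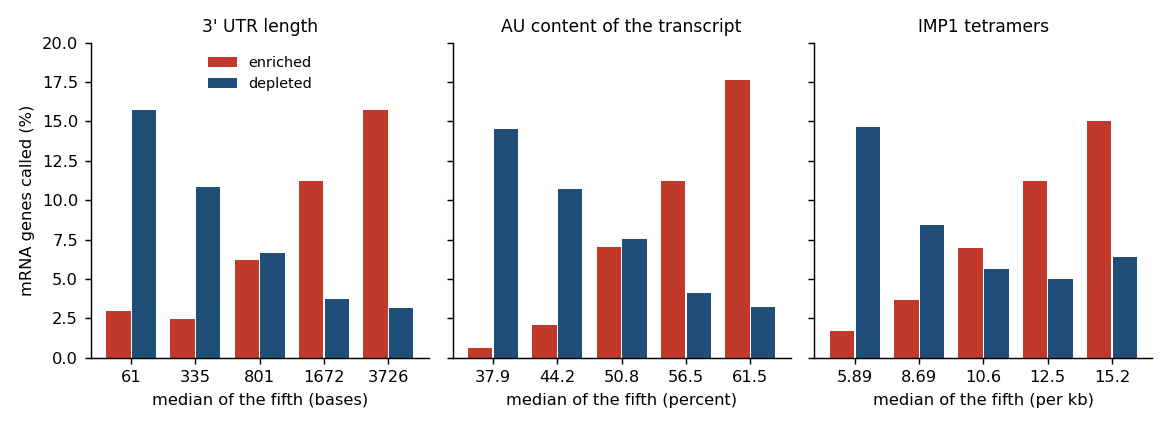
Share of mRNA genes enriched (red) and depleted (blue) in IMP1 fRIP against input set 1, in 5 groups of like size of 13406 mRNAs by 3′ UTR length, AU content of the transcript and IMP1 tetramers per kb, with the median of each group on the horizontal axis. The enriched share reaches 15.7%, 17.6% and 15% in the highest groups.

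The tetramer and the octamer were also set against their surroundings. Within the AU-rich group of mRNAs, 10.3% of those with the fewest tetramers per kb and 19.3% of those with the most were enriched, while in the AU-poor group the shares were 0.738% and 1.41%. In the AU-rich group the median difference was 0.15 and 0.33, with 0.35 in the third between them, and the depleted share was 3.15% and 4.56%. In the middle AU group 4.63% and 8.12% were enriched and 8.46% and 8.26% depleted. TTTTAAAA was absent from 9245 mRNAs, of which 4.93% were enriched, and present at least 3 times in 868, of which 16.8% were. Among mRNAs with the longest 3′ UTRs, 17.7% of those with the octamer and 11% of those without it were enriched. PRKAR2B holds 4 copies and 60 tetramers in its transcript, NXT2 holds 2 and 35, and MTPN and CAV2 hold none of the octamer and 54 and 48 tetramers.

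Across the 24 fRIPs, measured the same way against input set 1, IMP1 had the highest correlation with tetramer density, 0.299 ± 0.011, ahead of HUR at 0.248 ± 0.022 and RBBP5 at 0.219 ± 0.085, while STAG2 was at -0.054 ± 0.019. The lowest IMP1 library (0.291) was above the mean of HUR, but the SD of RBBP5 reaches the IMP1 mean. For 3′ UTR length IMP1 (0.339 ± 0.016) and HUR (0.342 ± 0.030) were within their spread, and PABP was the lowest at -0.186 ± 0.009. For AU content RBBP5 (0.460 ± 0.126), IMP1 (0.408 ± 0.030) and HUR (0.406 ± 0.059) lay within their SDs of each other. The submitters may have used another input set for the other proteins.

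**Figure D4:**
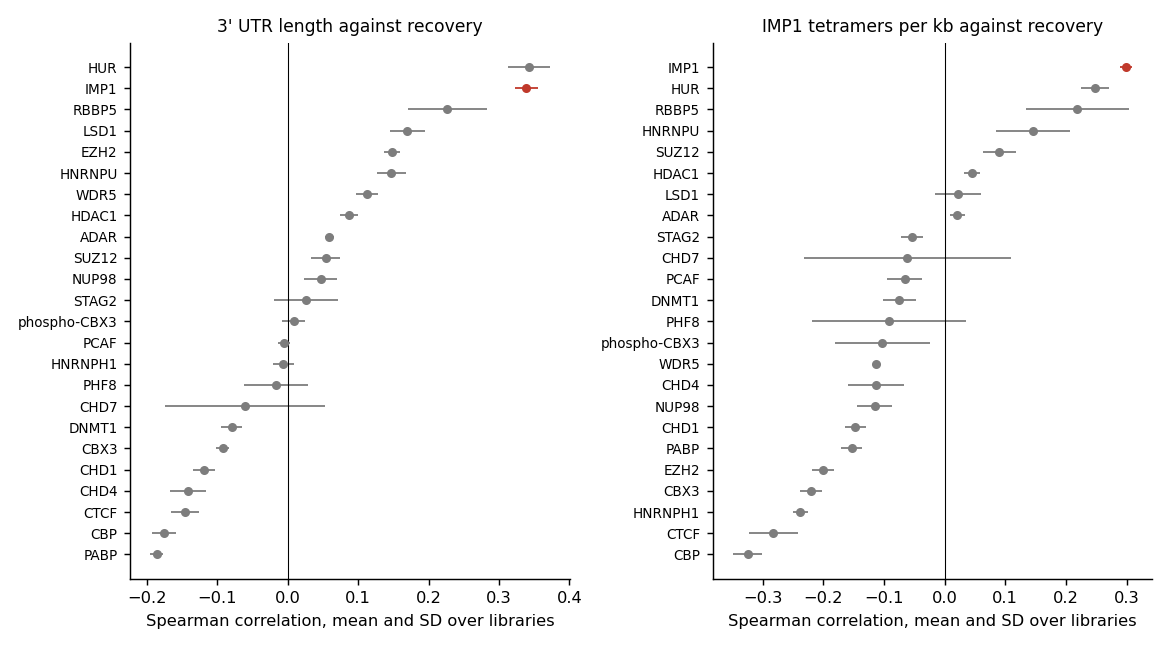
Spearman correlation across mRNAs of recovery (fRIP minus mean of input set 1) with 3′ UTR length, left, and IMP1 tetramers per kb, right, for each of 24 proteins, as mean and SD over 2 or 3 libraries. IMP1, in red, lies second to HUR on the left and first on the right.

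Isoforms of a gene were recovered unequally. Of 104506 isoforms tested 4105 were enriched (3.93%) and 12721 depleted (12.2%), or 9964 and 5148 after centring. Protein-coding isoforms were enriched in 6.69% and depleted in 5.44% of 42461 cases. Isoforms annotated as retaining an intron, which are mostly nuclear, were enriched in 0.624% and depleted in 28.3% of 19390. Isoforms of the same gene were then compared at a mean input of at least 1 FPKM. The mean difference of retained intron isoforms lay below that of protein-coding isoforms in 91.1% of 4459 genes. The median gap was -0.92 (quartiles -1.5 and -0.41). In 105 genes with isoforms of equal coding length whose 3′ UTR lengths differed by at least 2-fold, the shorter isoform was the lower in 62.9%. Here the mean input was at least 5 FPKM, and the median gap was -0.33 (quartiles -0.95 and 0.20). Both filters use input, which is also the level subtracted. An isoform listed too high in input would therefore count as lower with IMP1, and the shares are descriptions.

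**Figure D5:**
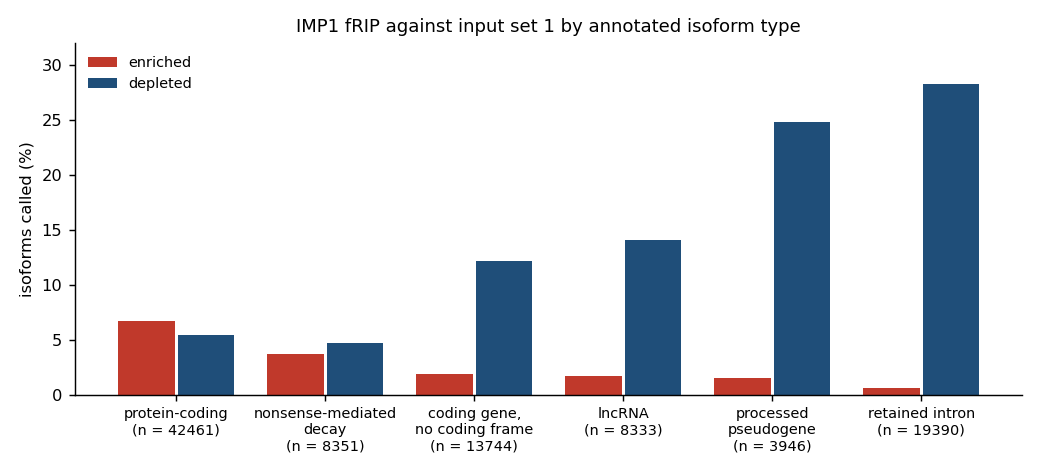
Share of isoforms enriched (red) and depleted (blue) in IMP1 fRIP against input set 1 by annotated type, with the number tested under each. Of the 6 types drawn, retained intron isoforms have the highest depleted share, 28.3%, and the lowest enriched share, 0.624%.

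By call, 1242 genes held both an enriched and a depleted isoform, where 3.93% and 12.2% of all isoforms were called. The count is not set against the number of genes with more than 1 isoform tested. Among pairs with every library apart, the widest gaps were in YWHAZ, TRA2B, TFRC, UBE2D3 and RBM39. For TFRC, the transferrin receptor, the gene as a whole did not pass the test (0.10, limma adjusted p = 0.68), but the coding isoform ENST00000420415 stood at 109, 63.7 and 127 FPKM with IMP1 against 3.40, 0.704 and 4.81 in input. The retained intron isoform ENST00000463356 was at 2.22, 1.99 and 2.66 FPKM against 19.2 to 22.8. In TRA2B, a splicing factor, the intron-retaining isoform ENST00000487615 fell from 22.5, 27.1 and 27.9 FPKM to 2.88, 1.87 and 2.42, and a second isoform, of the nonsense-mediated decay type, was near 0 in the inputs and at 26.4 to 33.0 FPKM with IMP1. UBE2D3 was alike, with ENST00000508474, which retains an intron, at 0.455 to 0.589 FPKM against 8.2 to 9.3. FPKM near 0 beside a high sister isoform can be an assignment by the quantification rather than an absence, and those levels are given as listed. HIST1H2AC, whose gene level was not called (0.28, and -0.85 and -1.46 against input sets 2 and 3), had its short stem-loop isoform with a 3′ UTR of 68 bases at 0.684 FPKM or less with IMP1 against 42.3 to 58.2 in input, and an isoform with 1042 bases at 49.2 to 64.9 against 19.7 to 32.6.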

How the data were processed

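The authors aligned reads of fRIP and input RNA of K562 cells to hg19 with TopHat and quantified them on GENCODE v18 with Cuffdiff 2. The labels also name CASAVA 1.4 and Cuffnorm. The deposited tables give FPKM per library for 48453 genes and 185661 isoforms, and their comparison table, with the authors' tests, served only to match the input set. Features came from GENCODE v44 on hg19 (46055 genes and 172143 isoforms matched). Genes and isoforms that reached 1 FPKM in 2 or more libraries entered 1 limma 3.58.1 fit (R 4.3.3) with a mean per protein and input set on log2(FPKM + 1), with Benjamini-Hochberg adjustment. On simulated data it recovered 92% of changes of 1.5 and 99% of 2.5, with 4 false calls among 25442 genes. Changes were set only in genes with at least 5 FPKM in input set 1, while the median input of all genes tested was 3.27 FPKM. The noise was normal, with 1 SD per gene shared by all groups, as the fit assumes. Recovery and false calls at lower levels or with unequal spread were not examined. The members and lists were chosen with earlier results of these data known. Named genes were list members, the 15 mRNAs (at least 10 FPKM) and 5 lncRNAs (at least 5 FPKM) with the largest called differences in each direction and all libraries apart, and 5 isoform pairs. The p-values measure the spread between libraries, which may be in part technical. Python 3.11.15 with scipy 1.17.1 did the rest. Some items are not reported here.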

Additional observations from a re-analysis of the deposited data

How the results depend on the processing

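The count of depleted genes against input set 1 depended on the pseudocount (5812 at 0.1 FPKM) and the input set (2331 with set 3), and centring on library medians turned 1249 enriched and 3513 depleted into 4562 and 1000. Against STAG2 fRIP 3955 genes were depleted at a pseudocount of 0.1 FPKM, and centring gave 3283 and 821. Against PABP fRIP a pseudocount of 0.1 FPKM gave 4178 enriched, and rescaling to 1 sum gave 6975 and 1358. For isoforms centring gave 9964 and 5148, and input sets 2 and 3 gave 8470 and 7601 depleted. These shifts follow from the scale or control named, and the cause of the difference between input sets was not tested. Centring on abundant mRNAs was added after seeing the data.

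Leaving out each library in turn gave 1152 to 1451 enriched and 3325 to 3577 depleted genes against input set 1, 1422 to 1628 and 2383 to 3229 against STAG2 fRIP (with 1 STAG2 library left it is assumed to vary like the other groups), 2289 to 2450 and 3267 to 3417 against PABP fRIP, and 3466 to 4095 and 11270 to 12054 isoforms. The deviations of IMP1 and input libraries with the same replicate number correlated at -0.135 to 0.0399, and no IMP1 library correlated best with the input of its own number, so the numbers were not taken to pair libraries. With the replicate number as a block the counts were 1248 and 3503 for input, 2359 and 3356 for PABP and 4055 and 12601 for isoforms. The block changed no named call but that of MALAT1.

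H19 (-0.014) and HIST1H2AC (-1.46) changed sign against input set 3. Besides that of H19, 16 calls of named genes were lost against input set 3. Against set 2 14 were lost, against all 9 inputs 10, and after centring on library medians 12. The correlation with 3′ UTR length was 0.381 with all 9 inputs, 0.359 with the longest isoform and 0.376 for genes over 5 FPKM. With IMP1 tetramers it was 0.329, 0.312 and 0.356, and with AU content 0.461 for genes over 5 FPKM. Depth is lowest for the STAG2 libraries, and values near 1 FPKM are the least precise.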
